A study of Mus musculus with 16 samples.

Results

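Ca2+/calmodulin-dependent protein kinase II (CaMKII) was described here at the level of RNA through 5 genes. *Camk2a*, *Camk2b*, *Camk2d* and *Camk2g* encode the kinase isoforms α, β, δ and γ, and *Camk2n1* encodes an endogenous inhibitor protein of the kinase. The genes were chosen by name, and all 5 were found among the 55492 genes of the deposited table, each with a mean above 10 normalized counts. A normalized count is the number of reads on a gene divided by the size factor of its library.

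RNA was sequenced in 16 libraries from left ventricles of male C57BL/6 mice aged 8 to 12 weeks. The labels number each library as a heart of its group and do not say that each came from a separate mouse, so the p-values measure the spread between these libraries. PKM2-/- mice lacked the M2 isoform of pyruvate kinase in all cells, since the exon particular to it was deleted in the germline with a CMV-driven Cre that was afterwards bred out. PKM2fl/fl mice carried the same floxed allele without deletion. Hearts were taken without surgery (baseline, 2 libraries per genotype), after a sham operation (3 per genotype), or 3 days after permanent ligation of the left anterior descending coronary artery to produce a myocardial infarction (MI, 3 per genotype). The time from sham operation to harvest is not given in the sources used here, so time after surgery and infarction cannot be told apart if it differed. The comparisons address the effect of infarction, of surgery alone and of the loss of PKM2.

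CaMKII is assembled from many subunits, each with a kinase domain, a regulatory segment that blocks it and a domain that joins the subunits. Calmodulin loaded with Ca2+ binds the regulatory segment and releases the kinase, and phosphorylation of a threonine in that segment by a neighbouring subunit keeps it active after Ca2+ has fallen. In the heart the δ isoform is the main form, and it phosphorylates proteins of Ca2+ handling such as phospholamban and the ryanodine receptor. The α and β isoforms are best known from neurons.

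The bases that code for the regulatory threonine are shown because this is the site the kinase is known for. They also show how far the kinase genes differ in sequence at this site, which is a small part of their exon bases. The segments below are 60 coding bases of the canonical GENCODE transcript on GRCm39, read 5′ to 3′ on the coding strand, with the threonine codon in capitals.
*Camk2b*, codon 287, chr11:5938958-5939017, minus strand: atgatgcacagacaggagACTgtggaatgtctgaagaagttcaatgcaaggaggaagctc
*Camk2d*, codon 287, chr3:126591372-126591431, plus strand: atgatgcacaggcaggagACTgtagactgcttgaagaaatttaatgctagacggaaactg
*Camk2g*, codon 287, chr14:20810468-20810527, minus strand: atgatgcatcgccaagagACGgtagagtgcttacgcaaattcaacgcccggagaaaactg
Over these 60 bases, which lie within a single exon in each gene, *Camk2b* and *Camk2d* shared 48 bases, *Camk2d* and *Camk2g* shared 43, and *Camk2b* and *Camk2g* shared 40. *Camk2a*, whose threonine is codon 286, shared 51 bases with *Camk2b*, 48 with *Camk2d* and 41 with *Camk2g*. Of the 20 encoded amino acids, 17 to 19 were identical in each pair of genes. How reads that match more than 1 gene were counted is not given in the sources used here.

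The genes lie on separate chromosomes in GRCm39. *Camk2d* runs from 126389945 to 126639982 on chromosome 3, *Camk2g* from 20784942 to 20844541 on chromosome 14, *Camk2a* from 61058473 to 61121224 on chromosome 18, *Camk2b* from 5915791 to 6016362 on chromosome 11 and *Camk2n1* from 138181407 to 138187434 on chromosome 4. *Camk2b* overlaps *Ykt6*, a gene for a vesicle fusion protein on the opposite strand, with which it shares 1772 of its 9327 exon bases (19%). Of the noncoding or unclassified genes in the table that overlap *Camk2a*, *Camk2d* or *Camk2g*, none had a mean above 2.33% of that member's, and *Camk2n1* overlaps no annotated gene.

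Total reads per library ranged from 20623769 to 71855101. Reads on the ribosomal RNA locus CT010467.1 made up 0.111% to 1.39% of PKM2fl/fl baseline and sham libraries, 4.14% to 15.01% of PKM2-/- baseline and sham libraries and 1.72% to 25.1% of MI libraries. *Pkm* is counted as a whole gene and so gave no check of the deleted exon. It had 7779 to 9602 normalized counts in PKM2fl/fl and 11710 to 14242 in PKM2-/- hearts at baseline and after sham surgery, without overlap.

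*Camk2d*, the δ isoform, was the highest member. Per kilobase of exon, which allows genes to be compared, it was above *Camk2g* in 16 of 16 libraries, and *Camk2g*, the γ isoform found in most tissues, was above *Camk2a*, *Camk2b* and *Camk2n1* in 16 of 16. The mean level per kilobase over the 16 libraries was 493 ± 42.1 normalized counts for *Camk2d*, 282 ± 35.7 for *Camk2g*, 86.8 ± 46.1 for *Camk2a*, 85.3 ± 31.7 for *Camk2n1* and 44.9 ± 16.6 for *Camk2b* (SD, n = 16). *Camk2a* and *Camk2n1* had no fixed order: *Camk2a* was above *Camk2n1* in 4 of 4 baseline, 2 of 6 sham and 0 of 6 MI libraries. *Camk2a* was above *Camk2b* in 10 of 10 baseline and sham libraries, 0 of 3 PKM2fl/fl MI libraries and 2 of 3 PKM2-/- MI libraries.

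*Camk2d* had 7785 and 7159 normalized counts in the PKM2fl/fl baseline hearts, 7028, 6451 and 7183 after sham surgery and 6012, 6919 and 6421 after MI. The PKM2-/- hearts had 7258 and 7295 at baseline, 6093, 6357 and 6231 after sham surgery and 6355, 6282 and 5791 after MI. The sham and MI values overlapped in both genotypes, and the whole range over the 16 libraries was 5791 to 7785.

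*Camk2g* had 1692 and 1516 normalized counts in PKM2fl/fl hearts at baseline, 1189, 1367 and 1457 after sham surgery and 1349, 1272 and 1074 after MI. The PKM2-/- hearts had 1488 and 1389 at baseline, 1164, 1220 and 1224 after sham surgery and 1324, 1183 and 1114 after MI. As with *Camk2d*, sham and MI hearts overlapped in both genotypes. Both baseline hearts were above all sham and MI hearts of their own genotype.

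*Camk2a*, the α isoform, had 974.9 and 1080 normalized counts in PKM2fl/fl hearts at baseline, 861, 867 and 1005 after sham surgery and 374, 402 and 166 after MI. In PKM2-/- hearts it had 1047 and 1010 at baseline, 695, 855 and 750 after sham surgery and 220, 171 and 160 after MI. Every MI heart was below every other heart, and the third PKM2fl/fl MI heart lay within the range of the PKM2-/- MI hearts.

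*Camk2n1* had 514 and 523 normalized counts in PKM2fl/fl hearts at baseline, 533, 480 and 413 after sham surgery and 244, 329 and 117 after MI. In PKM2-/- hearts it had 424 and 500 at baseline, 548, 588 and 547 after sham surgery and 276, 211 and 212 after MI. As for *Camk2a*, the MI hearts lay below all others, and the third PKM2fl/fl MI heart was the lowest of them.

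*Camk2b*, the β isoform, had 566 and 350 normalized counts in PKM2fl/fl hearts at baseline, 353, 443 and 368 after sham surgery and 649, 613 and 517 after MI. The PKM2-/- hearts had 277 and 233 at baseline, 569, 597 and 401 after sham surgery and 399, 189 and 170 after MI. It was the only member for which the MI hearts were above the sham hearts in one genotype and below them in the other. The gap between the PKM2-/- groups was 401 against 399, and how many of all genes show such a pattern was not counted.

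**Figure D1:**
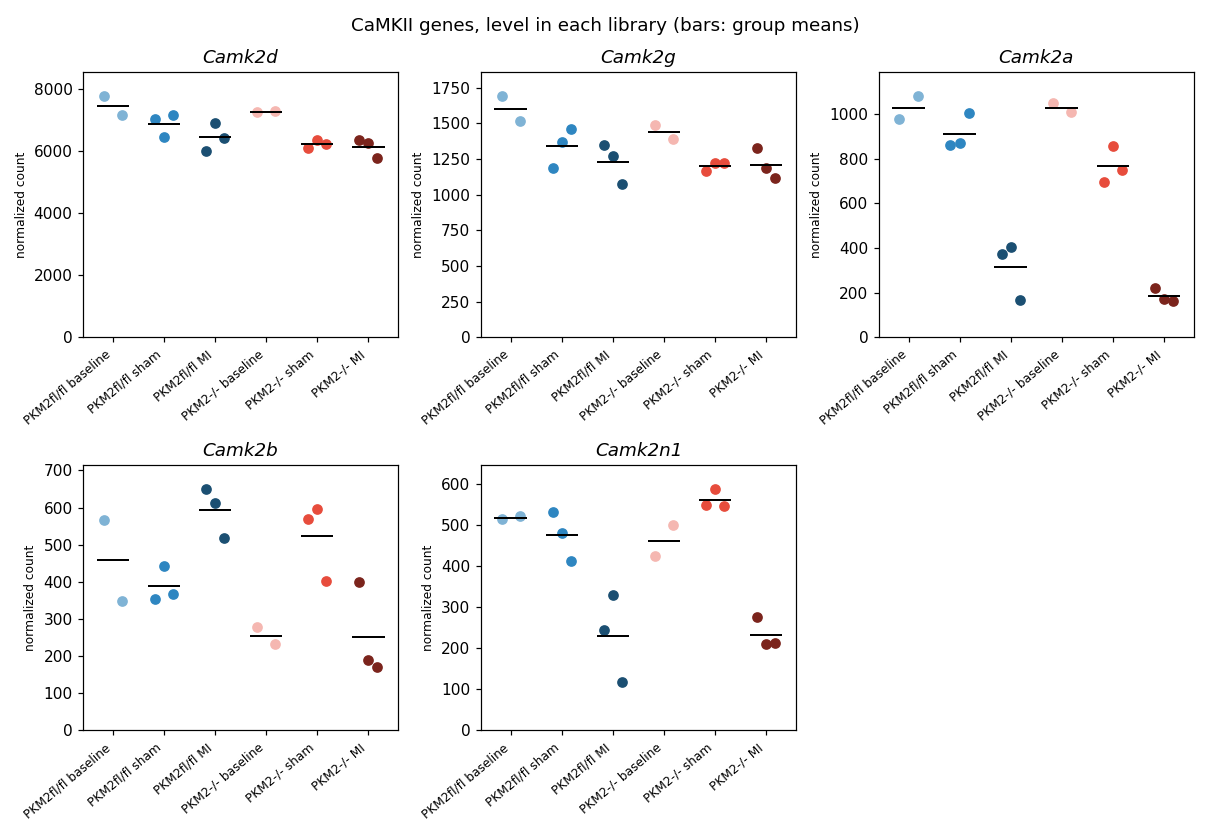
Normalized count of each of the 5 genes on the vertical axes, from 0, in the 6 groups. Each point is a heart and each bar a group mean. *Camk2d* stayed between 5791 and 7785 in all 16 hearts, *Camk2a* was at 160 to 402 in MI hearts and at 695 to 1080 in the others, and *Camk2b* was at 517 to 649 in PKM2fl/fl and 170 to 399 in PKM2-/- hearts after MI.

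In PKM2fl/fl hearts, *Camk2a* and *Camk2n1* were lower after MI than after sham surgery. The log2 fold change of *Camk2a* was -1.63 (standard error 0.24, adjusted p = 5.64e-05 from limma), or 3.10-fold lower, and that of *Camk2n1* was -1.16 (standard error 0.26, adjusted p = 0.00165), or 2.23-fold lower. In tissue RNA, fewer cells that express a gene and less of its RNA per cell cannot be told apart. *Camk2d* and *Camk2g* did not pass the test, with log2 fold changes of -0.10 (95% interval -0.29 to 0.09) and -0.12 (-0.35 to 0.11). *Camk2b* was at 0.61 (0.04 to 1.18, adjusted p = 0.0713) and did not pass either. *Camk2b* did pass under 6 of 28 alternatives, namely without PKM2-/- MI 1 (adjusted p = 0.0145), with DESeq2 (adjusted p = 0.04996), with limma-voom (adjusted p = 0.0391), with the sham and MI libraries alone (adjusted p = 0.00943), with the replicate number as a block (adjusted p = 0.0348) and with the CT010467.1 covariate, where it was at 1.23 (adjusted p = 0.00774). A gene passed at a Benjamini-Hochberg adjusted p under 0.05 over the 20576 genes tested with limma, after adding 1 to each value and taking log2. By this measure 2 of the 5 members passed, while 50.1% of all genes tested did, so the number of members that passed is not in itself particular to them. Of the genes tested, 3.61% had a lower fold change than *Camk2a* and 9.45% a lower one than *Camk2n1*. The *Camk2n1* call was lost when the CT010467.1 level was a covariate (log2 fold change -0.61, adjusted p = 0.153). CT010467.1 was itself higher after MI in PKM2fl/fl hearts, at a log2 fold change of 4.58 (adjusted p = 0.0153 from limma). With it as a covariate 6014 genes passed here, against 10299 without it. The covariate and infarction thus cannot be fully told apart in this comparison, for *Camk2b* or *Camk2n1*.

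In PKM2-/- hearts, *Camk2a*, *Camk2n1* and *Camk2b* were lower after MI. The log2 fold change was -2.06 for *Camk2a* (standard error 0.24, adjusted p = 4.73e-06 from limma), -1.28 for *Camk2n1* (standard error 0.26, adjusted p = 0.000626) and -1.13 for *Camk2b* (standard error 0.27, adjusted p = 0.00209). These correspond to levels 4.18-fold, 2.42-fold and 2.19-fold lower than after sham surgery. *Camk2d* was at -0.02 (95% interval -0.21 to 0.17) and *Camk2g* at 0.00 (-0.23 to 0.23) and neither passed. Here 3 of 5 members passed, beside 56.8% of all genes tested. *Camk2a* passed under 28 of 28 alternatives in each genotype. With libraries scaled to their total reads, which moved the median log2 fold change of all genes from 0.01 to 0.52, *Camk2n1* (-0.76, adjusted p = 0.0660) and *Camk2b* (-0.62, adjusted p = 0.140) no longer passed.

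**Figure D2:**
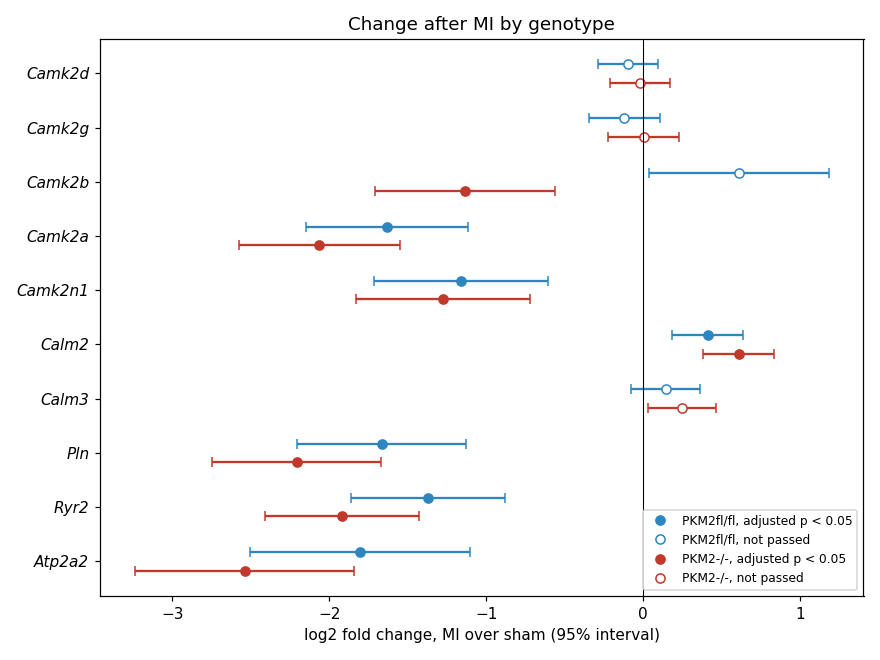
Log2 fold change of MI over sham hearts on the horizontal axis for the 5 members, *Calm2*, *Calm3* and 3 genes for CaMKII target proteins, with 95% intervals from limma. Blue marks PKM2fl/fl and red PKM2-/- hearts, and filled circles an adjusted p under 0.05. The intervals of *Camk2d* and *Camk2g* lie on both sides of 0 in both genotypes, and those of *Camk2b* do not overlap each other.

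Between genotypes, 0 of 5 members passed at baseline and 0 of 5 after sham surgery, where 0.00972% of all genes tested did in each comparison with limma. At an unadjusted p under 0.05 there was 1 member (*Camk2b*) at baseline and 0 after sham surgery, beside 748 and 2047 of the 20576 genes tested. By adjusted p, edgeR and DESeq2 also called 0 members in both comparisons. The intervals show which differences remain possible. For *Camk2d* the log2 difference of PKM2-/- from PKM2fl/fl was -0.04 (95% interval -0.27 to 0.20) at baseline and -0.14 (-0.33 to 0.05) after sham surgery. For *Camk2a* it was 0.00 (-0.63 to 0.63) and -0.25 (-0.77 to 0.26), for *Camk2g* -0.16 (-0.43 to 0.12) and -0.15 (-0.38 to 0.08), and for *Camk2n1* -0.17 (-0.85 to 0.51) and 0.24 (-0.31 to 0.80). *Camk2b* was at -0.81 (-1.51 to -0.11, unadjusted p = 0.0270, adjusted p = 1 from limma) at baseline and at 0.41 (-0.16 to 0.98) after sham surgery. These *Camk2b* values moved with the settings. They were -0.12 and 0.98 with the CT010467.1 covariate, whose share of reads did not overlap between the genotypes in these groups, and -1.39 and 0.09 with total count scaling, where the medians of all genes were -0.59 and -0.33 (adjusted p = 0.210 to 1.00 over these 4 values). The sign for *Camk2n1* turned at baseline with the covariate (0.44) and after sham surgery with total count scaling (-0.08), and that for *Camk2a* after sham surgery with the covariate (0.06).

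After MI, *Camk2b* was lower in PKM2-/- than in PKM2fl/fl hearts, by -1.33 on the log2 scale (standard error 0.27, adjusted p = 0.0354 from limma), or 2.52-fold. It was 1 of 5 members that passed, beside 0.967% of all genes tested, and 1.1% of genes had a lower fold change. The 3 PKM2-/- hearts, at 170 to 399, were all below the 3 PKM2fl/fl hearts, at 517 to 649. The call was close to the threshold. It was lost with edgeR on the recovered reads (-1.23, adjusted p = 0.0505), with the MI libraries alone (adjusted p = 0.183) and with total count scaling (-0.97 where the median of all genes was at 0.36, adjusted p = 0.224). It was also lost without PKM2fl/fl sham 1, PKM2fl/fl MI 1 or 2, PKM2-/- baseline 1 or 2, PKM2-/- sham 1, or PKM2-/- MI 2 or 3, at adjusted p of 0.0507 to 0.125 and log2 differences of -1.33 to -1.102 for *Camk2b*.

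*Camk2a* was at a log2 difference of -0.68 between genotypes after MI (95% interval -1.20 to -0.17, adjusted p = 0.167 from limma) and did not pass. Without the third PKM2fl/fl MI library it was at -1.09 (adjusted p = 0.000230), and with DESeq2 at -0.76 (adjusted p = 0.0375). That library also had the lowest cardiomyocyte marker level of the 16 libraries, and whether this bears on the *Camk2a* difference was not tested. *Camk2d*, *Camk2g* and *Camk2n1* were at -0.07 (-0.26 to 0.12), -0.03 (-0.25 to 0.20) and 0.13 (-0.42 to 0.68) after MI.

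The difference of the MI effect between genotypes was -1.74 on the log2 scale for *Camk2b* (standard error 0.38, 95% interval -2.55 to -0.93, unadjusted p = 0.000348, adjusted p = 0.277 from limma), and 0.637% of genes had a lower value. No member passed, and 0% of all genes tested did, with 1703 genes at an unadjusted p under 0.05. DESeq2 called 53 genes in this comparison, *Camk2b* among them (-1.65, adjusted p = 0.0154), and edgeR called 0. Without the third PKM2fl/fl MI library, *Camk2b* (-1.84, adjusted p = 0.0285) and *Camk2a* (-0.84, adjusted p = 0.0285) passed, beside 2.37% of all genes tested (486 of 20513). The corresponding value was 0.07 (95% interval -0.19 to 0.34) for *Camk2d*, 0.12 (-0.20 to 0.44) for *Camk2g*, -0.43 (-1.16 to 0.30) for *Camk2a* and -0.12 (-0.90 to 0.67) for *Camk2n1*. With total count scaling, where all genes had a median of 0.67, *Camk2a* was at 0.26 and *Camk2n1* at 0.57.

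*Ykt6*, which shares exon bases with *Camk2b*, had 932 to 991 normalized counts in PKM2fl/fl sham, 1047 to 1158 in PKM2fl/fl MI, 966 to 1051 in PKM2-/- sham and 1186 to 1481 in PKM2-/- MI hearts. Its log2 fold change after MI was 0.17 (adjusted p = 0.194 from limma) in PKM2fl/fl and 0.38 (adjusted p = 0.00692) in PKM2-/- hearts, where *Camk2b* was lower. The strand setting of the counting is not given in the sources used here, so reads of the shared bases cannot be assigned to either gene, and their part in the *Camk2b* values was not tested.

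Sham surgery by itself moved no member past the threshold in PKM2fl/fl hearts (0 of 5, beside 0.19% of all genes tested) or in PKM2-/- hearts (0 of 5, beside 5.14%). With limma at an unadjusted p under 0.05 there were *Camk2g* in PKM2fl/fl hearts and *Camk2b*, *Camk2d* and *Camk2g* in PKM2-/- hearts. Under that threshold lay 1813 and 3886 of the 20576 genes tested. By adjusted p, edgeR called 0 members in both, beside 27 and 796 genes, and DESeq2 called 0 and 1, beside 369 and 1418 genes. *Camk2b* came nearest, at 1.02 on the log2 scale in PKM2-/- hearts (95% interval 0.38 to 1.66, adjusted p = 0.0652 from limma) with the 3 sham hearts all above both baseline hearts. It passed with DESeq2 (1.03, adjusted p = 0.0228), with the 5 libraries of the comparison alone (1.02, adjusted p = 0.0242), with CT010467.1 as a covariate (0.96, adjusted p = 0.0390), without the third PKM2-/- sham library (1.20, adjusted p = 0.0488) and without the first PKM2-/- MI library (1.02, adjusted p = 0.0143). *Camk2d* was at -0.12 (-0.33 to 0.10) in PKM2fl/fl and -0.22 (-0.44 to -0.01, adjusted p = 0.234) in PKM2-/- hearts, and *Camk2g* at -0.26 in both (adjusted p = 0.537 and 0.257).

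The share of each kinase gene among the reads per kilobase of all 4 was compared next, since a share within a library needs no scaling between libraries. In the mean of the 16 libraries, *Camk2d* held 54.7%, *Camk2g* 31.1%, *Camk2a* 9.18% and *Camk2b* 4.98%. The shares rest on gene length, taken here as all exon bases of GENCODE basic transcripts (13527 for *Camk2d*, 4666 for *Camk2g*, 7660 for *Camk2a* and 9327 for *Camk2b*). With the coding length of the canonical transcript, *Camk2d* held 74.3% and *Camk2g* 14.7%. With the exons of the canonical transcript, *Camk2b* held 9.63% and *Camk2a* 8.01%. *Camk2d* was above *Camk2g* in 16 of 16 libraries under every one of these lengths, while the order of *Camk2a* and *Camk2b* depended on it, with *Camk2a* higher in 12, 12 and 7 of 16 libraries for basic exons, coding length and canonical exons.

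*Camk2a* had a smaller share of the kinase reads after MI. Its share was 12.2%, 12.2% and 12.9% in PKM2fl/fl sham hearts and 5.73%, 5.81% and 2.78% in MI hearts. The PKM2-/- shares were 10.6%, 12.3% and 11.3% after sham surgery and 3.48%, 2.94% and 2.96% after MI. The mean difference over both genotypes was -7.98 percentage points (two-sided exact permutation test within genotype, p = 0.005, adjusted p = 0.025 over 10 tests, with no smaller p possible in this design). Within a genotype it was -7.65 points in PKM2fl/fl and -8.30 in PKM2-/- hearts, where 3 hearts against 3 cannot go below an exact permutation p of 0.10. The adjusted p was 0.05 without any single one of the 3 PKM2fl/fl sham libraries or PKM2fl/fl MI 3, at differences of -8.04 to -7.48 points for *Camk2a*. The unadjusted permutation p was 0.005 in each of these cases, the smallest possible with those libraries.

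*Camk2d* had 53.3% ± 2.59 of the kinase reads in PKM2fl/fl sham hearts and 56.5% ± 4.28 in MI hearts, and 52.7% ± 0.775 and 59.6% ± 2.26 in PKM2-/- hearts (SD, n = 3 each). Its share was 5.06 points higher after MI (exact permutation test, p = 0.02, adjusted p = 0.0667), which did not pass. With coding length it was 5.42 points higher (exact permutation test, adjusted p = 0.0333), and without PKM2fl/fl MI 1 it was 6.15 points higher (adjusted p = 0.0333 by the same test). *Camk2g* was 2.80 points higher (exact permutation test, p = 0.03, adjusted p = 0.075). For *Camk2b* the mean difference over both genotypes was 0.112 points (exact permutation test, p = 0.955), with 3.15 points in PKM2fl/fl and -2.92 points in PKM2-/- hearts. These values are shares, and the levels of *Camk2d* and *Camk2g* did not pass the test of MI against sham.

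**Figure D3:**
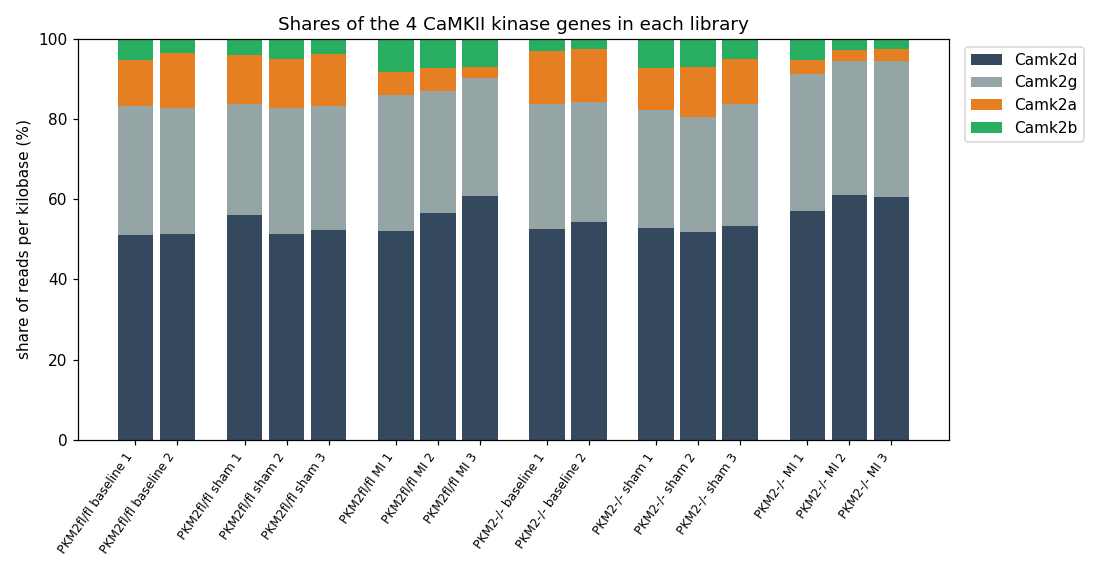
Share of reads per kilobase, in percent on the vertical axis, of *Camk2d*, *Camk2g*, *Camk2a* and *Camk2b* in each of the 16 hearts, as stacked bars that add up to 100. The *Camk2a* band is at 10.6% to 13.7% in baseline and sham hearts and at 2.78% to 5.81% in MI hearts.

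Between genotypes no share passed. The mean difference of PKM2-/- from PKM2fl/fl within baseline, sham and MI was 1.55 points for *Camk2d* (exact permutation test, p = 0.199), 0.319 for *Camk2g* (p = 0.681 by the same permutation test), -0.601 for *Camk2a* (permutation p = 0.308) and -1.27 for *Camk2b* (permutation p = 0.149). The adjusted p over the 10 tests was 0.298 to 0.756.

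*Camk2n1* was also set against the kinase genes, as its reads per kilobase per 100 of the 4 together. PKM2fl/fl sham hearts had 12.2, 10.9 and 8.61, and PKM2fl/fl MI hearts 6.06, 7.71 and 3.16. PKM2-/- sham hearts had 13.6, 13.7 and 13.4, and PKM2-/- MI hearts 7.06, 5.86 and 6.35. The MI hearts were below the sham hearts in both genotypes without overlap, at a mean log2 difference of -1.03 (two-sided exact permutation test, p = 0.005, again the lowest possible, adjusted p = 0.025). It was -0.98 in PKM2fl/fl and -1.08 in PKM2-/- hearts. The adjusted p was 0.05 without any single one of the 3 PKM2fl/fl sham libraries or PKM2fl/fl MI 3, at log2 differences of -1.103 to -0.85. The genotypes differed by 0.19 on the log2 scale (exact permutation test, p = 0.225, adjusted p = 0.321), and after sham surgery the 3 PKM2-/- hearts were all above the 3 PKM2fl/fl hearts (permutation p = 0.10, the smallest for 3 against 3).

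**Figure D4:**
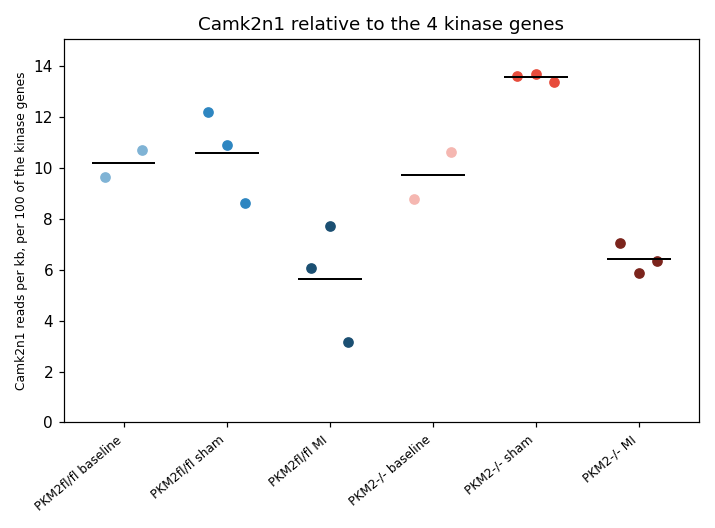
*Camk2n1* reads per kilobase per 100 reads per kilobase of the 4 kinase genes, on the vertical axis from 0, in the 6 groups. Points are hearts and bars are group means. MI hearts are at 3.16 to 7.71 and sham hearts at 8.61 to 13.7.

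*Camk2n2*, the paralog of *Camk2n1*, was low, at 10.5 to 83.5 normalized counts over the 16 libraries. It was at 19.98, 27.7 and 18.6 in PKM2fl/fl sham hearts and 83.5, 33.2 and 32.0 after MI, and at 24.1, 20.9 and 37.8 in PKM2-/- sham hearts and 45.4, 73.7 and 59.1 after MI. Its log2 fold change was 1.00 (adjusted p = 0.0721 from limma) in PKM2fl/fl and 1.097 (adjusted p = 0.0459) in PKM2-/- hearts, opposite in sign to that of *Camk2n1*. The gene overlaps a pair of genes on the other strand, among them *Eef1akmt4* with a mean of 99.5 normalized counts, so its reads are uncertain.

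Cardiomyocyte markers fell after MI in both genotypes, and this was set beside each member. All 7 markers (*Myh6*, *Tnnt2*, *Actn2*, *Tnni3*, *Myl2*, *Ryr2* and *Pln*) passed as lower, beside 25.3% and 28.1% of all genes tested. The median log2 fold change of the 7 was -1.74 in PKM2fl/fl and -2.19 in PKM2-/- hearts, beside 0.00 and 0.01 over all genes tested. Their summed level was 793234 to 889830 in PKM2fl/fl sham hearts, 133758 to 326404 in PKM2fl/fl MI hearts, 694160 to 848141 in PKM2-/- sham hearts and 143024 to 201767 in PKM2-/- MI hearts.

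Relative to the geometric mean of these markers, *Camk2a* varied little between sham and MI hearts. Per 1000 normalized counts of that mean it had 9.54 to 10.96 in PKM2fl/fl sham, 10.5 to 10.9 in PKM2fl/fl MI, 8.17 to 9.997 in PKM2-/- sham and 8.85 to 9.70 in PKM2-/- MI hearts, with overlap between sham and MI in both genotypes. On the same scale *Camk2d* had 73.1 to 78.3 in PKM2fl/fl sham and 168 to 414 in PKM2fl/fl MI hearts, and 67.9 to 80.3 and 256 to 356 in PKM2-/- hearts. *Camk2g* had 13.2 to 15.9 and 34.4 to 69.2 in PKM2fl/fl hearts, and 13.3 to 15.3 and 53.3 to 67.0 in PKM2-/- hearts, so both ratios were higher after MI without overlap, while the levels themselves did not pass the test. *Camk2n1* had 4.50 to 5.90 and 6.84 to 8.89 in PKM2fl/fl hearts and 5.96 to 7.22 and 11.1 to 12.2 in PKM2-/- hearts, higher after MI on this scale although its level was lower. *Camk2b* had 3.91 to 5.03 and 16.6 to 33.3 in PKM2fl/fl hearts and 4.37 to 7.50 and 9.76 to 16.1 in PKM2-/- hearts. These ratios are descriptions, and the part of cell composition in the levels was not tested.

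**Figure D5:**
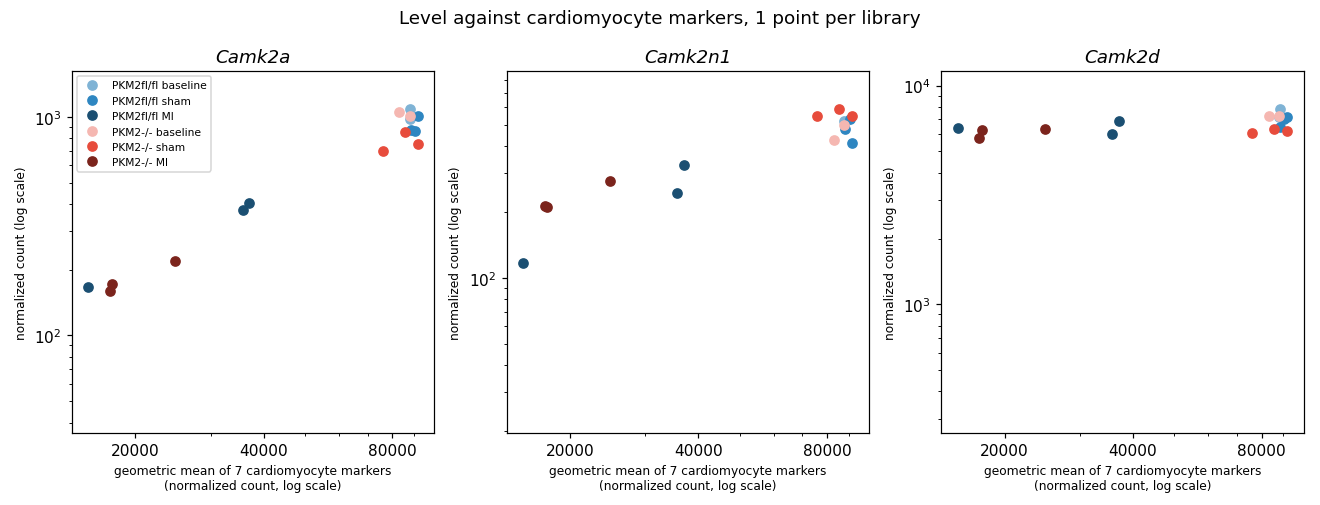
Normalized count of *Camk2a*, *Camk2n1* and *Camk2d* (vertical axes, log scale) against the geometric mean of 7 cardiomyocyte markers (horizontal axes, log scale), with 1 point per heart coloured by group. *Camk2a* falls with the markers from baseline and sham hearts (markers at 75879 to 91774) to MI hearts (15527 to 36997), and *Camk2d* stays between 5791 and 7785.

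Markers of other cells moved as well. The counts below stand beside the 50.1% and 56.8% of all genes tested that passed in either direction. Of 7 leukocyte markers, 5 were higher after MI in each genotype and 0 lower, such as *Cd68* at a log2 fold change of 3.09 in PKM2fl/fl and 2.78 in PKM2-/- hearts. Of 6 fibroblast markers, 5 were higher and 1 lower in each genotype, such as *Postn* at 3.82 and 3.59. Of 4 endothelial markers, 2 were higher and 1 lower in PKM2fl/fl hearts, and 1 higher and 2 lower in PKM2-/- hearts. Of 4 smooth muscle and pericyte markers, 2 were higher and 1 lower, and 2 higher and 2 lower, with summed levels of 10655 to 13592 in PKM2fl/fl and 8763 to 10295 in PKM2-/- hearts after MI. Of 7 neuron and Schwann cell markers only 3 were tested, with 2 lower in each genotype, and their summed level was 59.4 to 220 in all 16 hearts. Of 5 skeletal muscle markers 3 were tested, with 1 higher in PKM2fl/fl and 0 changed in PKM2-/- hearts. Of 4 atrial markers, 1 (*Nppa*) was higher and 0 lower in each genotype, although the median log2 fold change of the 4 was -1.02 and -0.91. For erythroid markers 0 of 2 passed, and 0 of 3 adipocyte markers reached the level for a test. Between genotypes, 0 of 7 cardiomyocyte markers passed at baseline, after sham surgery or after MI, beside 0.00972%, 0.00972% and 0.967% of all genes tested. After MI the median log2 difference of these markers was -0.48.

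*Calm2*, which encodes calmodulin, the activator of the kinase, had 1741 to 2125 normalized counts in PKM2fl/fl sham and 2535 to 2714 in PKM2fl/fl MI hearts, and 1915 to 2383 in PKM2-/- sham and 3037 to 3436 in PKM2-/- MI hearts. The MI hearts were above the sham hearts in both genotypes without overlap, at log2 fold changes of 0.41 (adjusted p = 0.00462 from limma) and 0.61 (adjusted p = 0.000175). With total count scaling *Calm2* did not pass in PKM2fl/fl hearts (0.23, adjusted p = 0.611). *Calm3*, which encodes the same protein, was at 0.14 (adjusted p = 0.264 from limma) and 0.25 (adjusted p = 0.0519) and did not pass. In PKM2-/- hearts *Calm3* passed with DESeq2 (adjusted p = 0.0341), with a mean of 100 as the filter (adjusted p = 0.0433), with the CT010467.1 covariate (adjusted p = 0.0495), with total count scaling, where it was at 0.76 and the median of all genes at 0.52 (adjusted p = 0.0389), and without PKM2fl/fl MI 3, PKM2-/- baseline 1 or 2, or PKM2-/- MI 3 (adjusted p = 0.0318 to 0.0454 from limma). Neither gene passed between genotypes at baseline, after sham surgery or after MI.

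Of 13 genes of the calmodulin-dependent kinase cascade, *Calm2* and *Calm3* among them, 12 were tested. In PKM2fl/fl hearts 4 were higher and 1 lower after MI, and in PKM2-/- hearts 3 were higher and 2 lower, with median log2 fold changes of 0.21 and 0.19. The share that passed was below the 50.1% and 56.8% of all genes tested, so the counts show nothing particular to this list. *Camkk2*, a kinase that activates CaMKI and CaMKIV, was higher in both genotypes (0.59 and 0.45, adjusted p = 0.000322 and 0.00228 from limma). *Pnck*, a CaMKI family kinase, was lower in both genotypes (-1.82 and -2.11, adjusted p = 0.000152 and 2.94e-05).

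Genes for proteins that CaMKII phosphorylates were lower after MI in both genotypes. Of 18 such genes, 16 were lower and 0 higher in each genotype, with median log2 fold changes of -1.16 and -1.47, beside 25.3% and 28.1% of all genes tested that were lower. *Pln*, which encodes the SERCA inhibitor phospholamban, had 109248, 97878 and 96584 normalized counts in PKM2fl/fl sham and 35909, 42743 and 21046 in MI hearts, and 77657, 80650 and 109412 in PKM2-/- sham and 24489, 17146 and 16582 in MI hearts. Its log2 fold change was -1.67 (adjusted p = 6.74e-05) in PKM2fl/fl and -2.21 (adjusted p = 3.72e-06) in PKM2-/- hearts. *Ryr2*, the Ca2+ release channel of the sarcoplasmic reticulum, was at -1.37 and -1.92 (adjusted p = 0.000170 and 5.99e-06 from limma), and *Atp2a2*, which encodes the Ca2+ pump SERCA2, at -1.80 and -2.54 (adjusted p = 0.000325 and 1.11e-05). *Kcnd3*, a channel subunit of the transient outward K+ current, was at -1.61 and -1.86 (adjusted p = 3.18e-06 and 5.77e-07). *Cacna1c*, the pore subunit of the L-type Ca2+ channel, was at -1.48 and -1.73 (adjusted p = 3.59e-05 and 5.97e-06), and *Cacnb2*, its auxiliary subunit, at -0.94 and -1.65 (adjusted p = 0.000302 and 1.51e-06). *Pln* and *Ryr2* are also among the cardiomyocyte markers.

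Between genotypes, *Pln*, *Ryr2* and *Atp2a2* did not pass in any condition. After MI they were at -0.74 (95% interval -1.27 to -0.20), -0.55 (-1.05 to -0.06) and -0.73 (-1.43 to -0.03) in PKM2-/- relative to PKM2fl/fl hearts (adjusted p = 0.153, 0.239 and 0.275 from limma). They passed with DESeq2 (adjusted p = 0.0150, 0.0446 and 0.0179), and without the third PKM2fl/fl MI library, at -1.04, -0.82 and -1.18 (adjusted p = 0.00429, 0.0103 and 0.00244 from limma).

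Of 15 genes for phosphatases and for enzymes that reverse methionine oxidation or add and remove O-GlcNAc, 2 were higher and 7 lower after MI in PKM2fl/fl hearts, and 3 higher and 4 lower in PKM2-/- hearts, beside 50.1% and 56.8% of all genes tested that passed in either direction. *Msrb2*, a mitochondrial methionine sulfoxide reductase, was at -1.35 and -1.61 (adjusted p = 5.75e-06 and 7.75e-07 from limma). *Msrb3* was at -0.47 and -0.87, and *Ppp1cb*, a catalytic subunit of protein phosphatase 1, at -0.60 and -0.56.

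Splice variants of *Camk2d* differ in where the kinase is found in the cell, but the table holds 1 value per gene and variants were not analysed here. Of 6 genes for splicing regulators of *Camk2d*, 5 were tested, and 1 was higher and 3 lower after MI in each genotype, beside 50.1% and 56.8% of all genes tested that passed in either direction. *Ptbp1* was higher, at 1.61 and 1.68 (adjusted p = 9.72e-08 and 5.11e-08 from limma). *Rbm20*, a splicing factor of heart muscle that acts on titin and *Camk2d* transcripts, was lower, at -1.60 and -2.16 (adjusted p = 4.24e-05 and 2.04e-06). *Rbfox1* was at -1.01 and -1.06 (adjusted p = 7.34e-05 and 3.10e-05) and *Rbm24* at -1.53 and -1.84 (adjusted p = 8.71e-05 and 1.15e-05).

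The genes whose levels were most like those of each member were found by Pearson's r of the log2 levels over the 16 libraries, among the 13465 genes that averaged 100 normalized counts or more. The libraries share the 6 groups and the scaling, so r is a description. For *Camk2a* they were *Fyco1* (r = 0.997), *Acsl1* (0.996) and *Rbm20* (0.994), and after removal of the group means r was still 0.968, 0.970 and 0.940. *Rbm20* is one of the splicing regulators above. For *Camk2n1* they were *Pcyt2* (0.978), *Ankmy1* (0.975) and *B230104I21Rik* (0.975). For *Camk2d* they were *Pced1b* (0.916), *Smco4* (0.898) and *Map2k6* (0.876), and for *Camk2g* *Gm20532* (0.915), *Dusp10* (0.910) and *Acap3* (0.890). For *Camk2b* the closest genes, *E4f1* (0.734), *Rpap1* (0.730) and *Ap1m1* (0.723), were less alike. Among the members, *Camk2a* and *Camk2n1* had the highest r (0.900), followed by *Camk2d* and *Camk2g* (0.747), and r of *Camk2b* with any other member was 0.0309 to 0.225.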

How the data were processed

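RNA was extracted from left ventricles, depleted of ribosomal RNA and sequenced. Per the study's methods, the authors used PRINSEQ for trimming, HISAT2 for alignment to the mm10 genome and featureCounts for gene counts, and deposited, for each library, a normalized signal, the count divided by the DESeq2 size factor. Versions, strand and multi-mapping settings are not given in the sources used here. The same table holds the authors' baseline comparison (mean, log2 fold change, standard error, score and p-value), which was not used. Reads were recovered by division, and 100% of values were whole within 0.01 read.

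The 6 groups and 16 samples were taken from the sample labels. Genes that averaged 10 normalized counts or more were tested on log2(value + 1), a scale that understates changes of low genes, with limma-trend 3.58.1 in R 4.3.3, with 1 term per group in a fit of all 16 libraries and Benjamini-Hochberg adjustment over all genes. Shares used exact permutation tests within strata, or sign flips with the replicate block, adjusted over 10 tests. Alternatives were TMM and total count scaling, pseudocounts of 0.1 and 10, no filter or a mean of 100, edgeR 4.0.16, DESeq2 1.42.0 and limma-voom on reads, only the compared groups, the replicate number as a block, the CT010467.1 level as a covariate, other gene lengths, and each library left out in turn. On simulated data with 200 changed genes, for MI against sham in PKM2fl/fl hearts over 20576 genes, 98.9% of 2-fold and 100% of larger changes were recovered, with 9 false calls. The simulated counts had the same dispersion for every gene, and the changed genes were drawn from those at higher levels. The recovery is thus a check of the code and does not measure power in these libraries. Positions and lengths came from GENCODE on GRCm39, the sequences from its transcripts.

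The members, gene lists and tests were chosen with earlier results of these data known. The genes named are the members, *Pln*, *Ryr2*, *Atp2a2*, *Calm2*, *Calm3*, the 3 genes most correlated with each member, and up to 3 genes with the smallest adjusted p of each list that passed after MI. *Ykt6* and *Eef1akmt4* were added for their overlap. One result of the kinase cascade list is not reported here, and the list's counts leave it out.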

Additional observations from a re-analysis of the deposited data

Results flagged for a closer look

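*Camk2b* was higher after MI than after sham surgery in 3 of 3 PKM2fl/fl hearts and lower in 3 of 3 PKM2-/- hearts. The difference of the log2 fold changes was -1.74 (standard error 0.38, adjusted p = 0.277 from limma), which did not pass the threshold. *Camk2b* also shares 19% of its exon bases with *Ykt6*, whose part in this was not tested.

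*Camk2n1* was higher in every PKM2-/- sham heart than in every PKM2fl/fl sham heart, while both PKM2-/- baseline hearts were below both PKM2fl/fl baseline hearts. The difference between these genotype effects was 0.41 on the log2 scale (standard error 0.41, adjusted p = 0.973 from limma) and did not pass. This contrast was chosen after seeing the data. The opposite signs for *Camk2n1* depend on the settings, since the sham difference was -0.08 with total count scaling and the baseline difference 0.44 with the CT010467.1 covariate, where the sham difference was 0.75. The corresponding difference for *Camk2b* was 1.22 (adjusted p = 0.628 from limma).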

How the results depend on the processing

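The count of members past the threshold after MI in PKM2-/- hearts was 3, and became 1 with total count scaling. Between genotypes after MI it was 1, and became 0 with total count scaling, edgeR or the MI libraries alone, 2 with DESeq2, and 0 to 2 without single libraries. For sham against baseline in PKM2-/- hearts it was 0, and became 1 with DESeq2, the compared groups alone, the replicate block or the CT010467.1 covariate, and 0 to 1 without single libraries. For the difference of the MI effect it was 0, and became 1 with DESeq2 and 0 to 2 without single libraries. Without single libraries the *Camk2a* share differed by -8.24 to -7.48 points, the *Camk2n1* ratio by -1.17 to -0.85 on the log2 scale and the *Camk2d* share by 4.02 to 6.15 points, and with coding length the *Camk2d* share differed by 5.42 points. Of 480 values of the members under alternatives that kept all libraries, 16 had another sign than the value reported, and 0 of these passed under either setting. Without single libraries the *Camk2b* share after MI differed by -0.315 to 0.334 points, on both sides of 0. The cause of these changes was not tested.

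Same-numbered libraries had correlations of -0.395 to 0.237 in their deviations from the group means, with 4 of 36 pairs over 0.1. Libraries with different numbers had -0.336 to 0.395, with 12 of 70 pairs over 0.1. In the baseline groups the deviations of the libraries mirror each other. This check thus cannot decide whether the numbers pair the samples. With the replicate block the *Camk2a* share still differed by -7.98 points and the *Camk2n1* ratio by -1.03. By exact sign flips of the same-numbered differences each had p = 0.03125, the smallest possible with this block, and an adjusted p of 0.156. *Camk2b* in PKM2-/- sham against baseline hearts was at 1.15 with the block (adjusted p = 0.0233 from limma).

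Over all genes, total count scaling moved the median log2 fold change after MI to -0.18 in PKM2fl/fl and 0.52 in PKM2-/- hearts. It called 2368 genes higher and 3637 lower (5097 and 5202 otherwise) in PKM2fl/fl hearts, 7219 and 1891 (5899 and 5780) in PKM2-/- hearts, 101 and 20 (81 and 118) between genotypes after MI, and 553 and 34 (716 and 342) for sham against baseline in PKM2-/- hearts. Between genotypes after MI, 199 genes passed with limma, 1036 with DESeq2, 75 with the replicate block, 6 with the MI libraries alone and 11 to 2279 without single libraries, the highest without PKM2fl/fl MI 3. With limma and DESeq2, 2 and 17 genes passed between genotypes at baseline, 2 and 272 after sham surgery, 39 and 369 for sham against baseline in PKM2fl/fl hearts, and 0 and 53 for the difference of the MI effect. Total count scaling gave 44, 113, 94 and 54 in these comparisons, the compared groups alone 48, 9, 1 and 0, the replicate block 1, 0, 24 and 0, and the CT010467.1 covariate 0, 0, 30 and 0. With that covariate 6014 genes passed after MI in PKM2fl/fl hearts, against 10299 without it. For sham against baseline, limma-voom gave 17 genes in PKM2fl/fl and 387 in PKM2-/- hearts, against 39 and 1058, and total count scaling 587 in PKM2-/- hearts. A pseudocount of 0.1 gave 9 genes between genotypes at baseline, a pseudocount of 10 gave 24 for sham against baseline in PKM2fl/fl hearts, no filter gave 0 and a mean of 100 gave 4 between genotypes after sham surgery.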
